A study of Mus musculus with 3 samples.

Results

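Antiviral restriction factors are host proteins that act on viruses inside or at the surface of the infected cell. The set described here holds 10 mouse genes chosen by name for that role, namely Bst2, Samhd1, Apobec3, Ifitm1, Ifitm2, Ifitm3, Mx1, Mx2, Rsad2 and Eif2ak2, out of 36870 gene names on the arrays. Of the 10 genes, 9 had at least 1 probe on the arrays, with 20 probes in all, and Ifitm2 had none by name or by accession. The genes were measured in RAW264.7 cells, a mouse macrophage line, which is a single established line and not a sample of animals. In the LPS group the cells received lipopolysaccharide (LPS), a ligand of Toll-like receptor 4, for 3 h. In the LOC1 + LPS and LOC3 + LPS groups the cells received Lactiplantibacillus plantarum LOC1 or LOC3, both from fresh tea leaves, before the same LPS challenge. The growth labels give 12 h for the lactobacilli, while the methods state a longer time, so the length of this step is not settled. Unchallenged macrophages enter through ratios in the deposited table, since an array of theirs was not analysed here.

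Most restriction factors belong to the interferon-stimulated genes. LPS acting through Toll-like receptor 4 leads macrophages to make interferon-β, which binds its receptor on the same and on neighbouring cells and activates a complex of transcription factors. This complex binds the interferon-stimulated response element (ISRE) near the start of many of these genes, and the proteins made then act on viral entry, on viral nucleic acids, on translation or on the release of new particles.

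Each group was measured on 1 array, all 3 arrays lay on 1 slide and were read in 1 scan, and no spread between cultures could be estimated. Differences are therefore values of these arrays with no test. The sole error available was the noise between spots of the same probe, which gave a technical SD of a log2 difference between 2 arrays of 0.06 for bright probes and 0.30 for dim probes, dim meaning a mean signal over 2-fold under the 75th percentile of all probes of an array (the upper quartile). The detection limit of an array is taken as the faintest signal that the scanner software marked as well above background there. Of the 20 probes, 17 were bright, 3 were dim, and 19 were well above background on all 3 arrays. As a check of the label, 8 of 8 macrophage markers were well above background on all 3 arrays, with summed intensities of 489405 with LPS, 372321 with LOC1 + LPS and 404255 with LOC3 + LPS. The sums are of unscaled intensities, and single markers went both ways. Scaled as below, Fcgr3 differed from LPS by −1.62 with LOC1 + LPS and −1.39 with LOC3 + LPS on the log2 scale. Adgre1 differed by 0.60 and 0.42. None of 3 B cell and 4 epithelial markers was well above background on all 3 arrays. For T cells it was 1 of 3, Cd3e, with intensities of 396, 416 and 451, and Cd3g and Cd8a were not. The 3 fibroblast markers were detected at summed intensities of 125, 90.0 and 100, and the 3 endothelial markers at 140, 158 and 155, in the same order of arrays. Whether these signals played a part in the values below was not tested.

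The promoter sequences are shown first, because 6 of the 9 promoters listed for 8 of these genes held the core of the ISRE, the letters GAAANNGAAA on either strand. Of 32851 mouse promoters of the same length in the RefSeq table (250 bases before to 50 bases from the start, build GRCm38.p6), 3.44% held this core. Mx1 and Mx2 have no entry. The stretches below run 5′ to 3′ along the gene and end at the base before the transcription start, with each match in capitals. Bst2, Rsad2 and Apobec3 are shown as genes with the core upstream, and Ifitm1 as a gene with no match.
Bst2, chr8:71537473-71537622, minus strand: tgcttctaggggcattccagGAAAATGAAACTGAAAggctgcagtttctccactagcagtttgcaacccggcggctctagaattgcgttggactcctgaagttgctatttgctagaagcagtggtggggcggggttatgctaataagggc
Rsad2, chr12:26456453-26456602, minus strand: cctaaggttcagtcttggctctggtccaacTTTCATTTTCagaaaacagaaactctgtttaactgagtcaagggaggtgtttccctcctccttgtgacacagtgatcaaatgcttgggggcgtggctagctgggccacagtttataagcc
Apobec3, first listed start, chr15:79892258-79892407, plus strand: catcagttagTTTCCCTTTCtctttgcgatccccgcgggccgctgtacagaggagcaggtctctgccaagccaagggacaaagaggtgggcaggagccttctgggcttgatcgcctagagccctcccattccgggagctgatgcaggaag
Ifitm1, chr7:140967926-140968075, plus strand: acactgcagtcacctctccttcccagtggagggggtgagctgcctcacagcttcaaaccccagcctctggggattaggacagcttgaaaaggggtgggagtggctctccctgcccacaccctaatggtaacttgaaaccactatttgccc

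In Ifitm3 and Eif2ak2 the core lay just after the start, so the first 30 transcribed bases are shown for these genes.
Ifitm3, chr7:141010715-141010744, minus strand: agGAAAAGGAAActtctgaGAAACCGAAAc
Eif2ak2, chr17:78882543-78882572, minus strand: gaaggcggagtccgccggGAAAACGAAAca

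Counting the first transcribed base as 0, the Bst2 promoter held the core at −130 to −121 and at −124 to −115, which overlap. Rsad2 held it at −120 to −111 and Apobec3 at −140 to −131, both on the strand opposite to the gene. Ifitm2, which had no probe, held it at −46 to −37. Ifitm3 held it at 2 to 11 and at 19 to 28, and Eif2ak2 at 18 to 27. The promoters of Samhd1 and Ifitm1 and the second listed start of Apobec3 held no match. A second motif of interferon signalling, the gamma-activated site TTCNNNGAA, was found in 4 of the 9 promoters, against 8.30% of all promoters. It lay at −235 to −227 in Samhd1, at −178 to −170 in Eif2ak2, and in Bst2 and Ifitm3 it overlapped an ISRE core. A match is a run of letters and was not tested for binding.

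**Figure D1:**
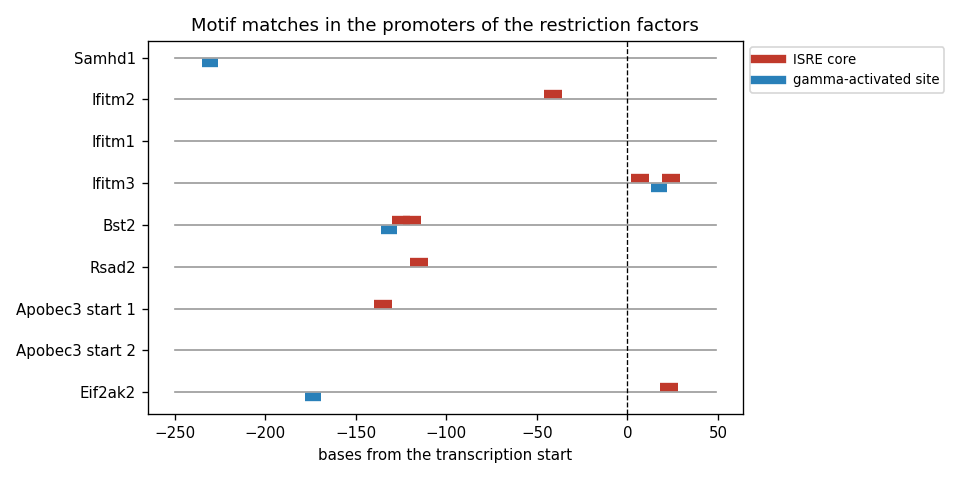
Positions of the ISRE core (red) and the gamma-activated site (blue) in the 9 listed promoters of 8 restriction factors, in bases from the transcription start (dashed line). The core lies upstream in Bst2, Rsad2, Ifitm2 and the first start of Apobec3, and after the start in Ifitm3 and Eif2ak2.

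LPS alone was accompanied by higher signal of the restriction factors wherever the deposited table gave a ratio. The table, a list of log2 ratios to unchallenged macrophages with values under 2-fold left blank, held an LPS ratio for 13 of the 20 probes, and all 13 were positive, covering 8 of the 9 genes. Over all 56605 probes, 7.08% were listed as at least 2-fold higher with LPS and 6.31% as at least 2-fold lower. With LOC1 + LPS and with LOC3 + LPS 15 probes each had a ratio, all positive, where 7.96% and 8.02% of all probes were listed as higher and 8.52% and 8.88% as lower. Since the table omits some probes for reasons other than size, the 5 restriction factor probes that it does not hold in any column are no evidence of a small change. Ifitm3 was the gene with no listed ratio, and the brightest probes of Apobec3 and Mx1 were also absent.

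The largest LPS ratio was that of Rsad2, which encodes viperin, an enzyme that makes a chain-terminating ribonucleotide used against viral polymerases. Its brightest probe had a deposited log2 ratio of 12.28, or 4964-fold over unchallenged macrophages. Mx2, a dynamin-like GTPase gene, had 9.34, or 647-fold. Mx1, the other dynamin-like GTPase gene, had a listed ratio of 10.10 on its second probe, but the unchallenged signal that this implies lay under the detection limit of the LPS array, so that it was at least 208-fold higher. For these 3 genes the implied unchallenged signal lay near or under the detection limit and the LPS signal far over it. RefSeq lists both Mx1 and Mx2 as transcribed pseudogenes of its reference mouse strain, and most laboratory strains carry a defective Mx1, so that a transcript level here is not a level of working protein.

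The other genes had smaller LPS ratios. Eif2ak2, which encodes the double-stranded RNA-activated kinase PKR, had a log2 ratio of 2.66, or 6.30-fold. Bst2, which encodes tetherin, had 2.55, or 5.85-fold, and Ifitm1, which encodes a membrane protein that hinders viral fusion, had 2.15, or 4.45-fold. Samhd1, whose product breaks down the deoxynucleotides needed for reverse transcription, had 2.11 on its brightest probe and 2.47, 4.51 and 3.23 on the 3 other probes listed. Apobec3, a cytidine deaminase gene, had the smallest ratios, 1.10 and 1.28 on the 2 probes listed with LPS. On 2 more Apobec3 probes the LPS cell was blank and the ratio rebuilt from the intensities was 0.89 and 0.96, just under the 2-fold limit.

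**Figure D2:**
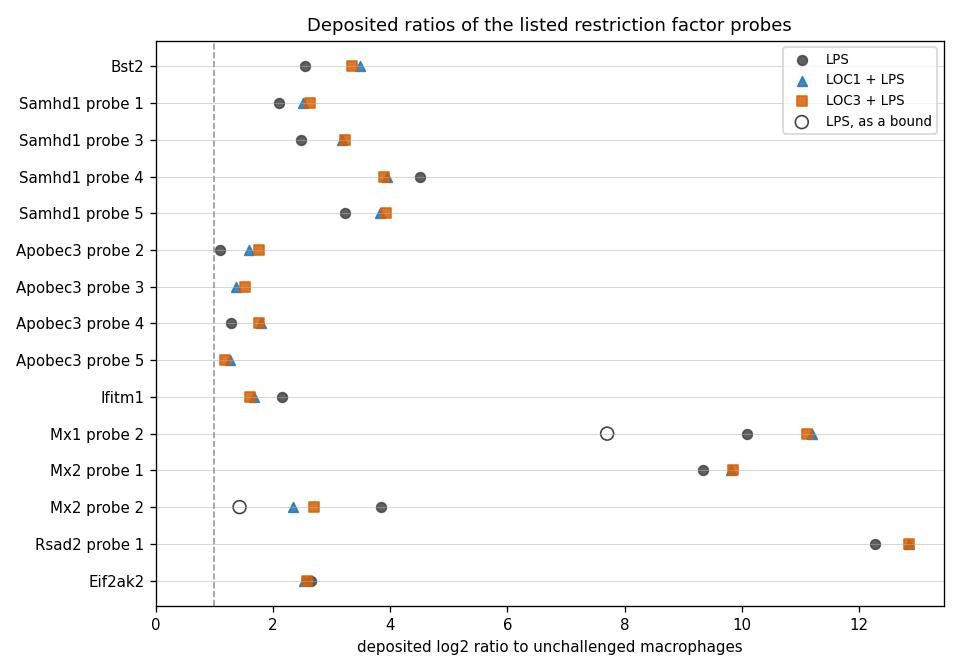
Deposited log2 ratios to unchallenged macrophages for the 15 listed probes of the restriction factors, with the 2-fold limit of the table as a dashed line. All ratios are positive; the open circles give the LPS value as a bound where the implied unchallenged signal was under the detection limit of the LPS array (Mx1 probe 2 and Mx2 probe 2), and Apobec3 probes 3 and 5 have no LPS ratio because it was under 2-fold.

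The comparisons of each strain with LPS alone asked whether prior contact with the lactobacilli altered this response. Both comparisons use the same LPS array, so a deviation of that array enters both. With LOC1 + LPS, 6 of the 9 genes lay above 0 and 3 below, taking the brightest probe of each gene and log2 intensities relative to the upper quartile of each array, against 53.7% of 20042 genes above 0. With LOC3 + LPS, 7 lay above 0 and 2 below, against 58.1% of 19821 genes. The median difference over the 9 genes was 0.40 for LOC1 and 0.52 for LOC3 in log2 units, and over all genes 0.03 and 0.07. No gene reached 2-fold in either direction on its brightest probe. The corresponding share of all genes was 2.71% higher and 3.51% lower with LOC1, and 3.22% higher and 2.92% lower with LOC3. At 1.5-fold, 2 of the 9 genes, Bst2 and Mx1, were higher with each strain and none was lower, where 8.74% and 8.7% of all genes were higher and 10.5% and 8.7% lower. These counts depend on the scaling. With median scaling, Bst2 and Mx1 were past 2-fold with LOC1 and Mx1 with LOC3, and 5 genes were at least 1.5-fold higher with each strain, namely Bst2, Samhd1, Mx1, Mx2 and Rsad2. With scaling over probes detected on all arrays, the 2 higher genes were again Bst2 and Mx1, and Ifitm1 was at least 1.5-fold lower with LOC3. With LOC1 + LPS 544 genes were at least 2-fold higher and 704 lower, and with median scaling 891 and 467. With LOC3 + LPS these were 639 and 578, and 899 and 377. With scaling over probes detected on all arrays, the LOC1 split was 455 and 847 and the LOC3 split 553 and 711, so a difference close to 0 has no settled sign.

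**Figure D3:**
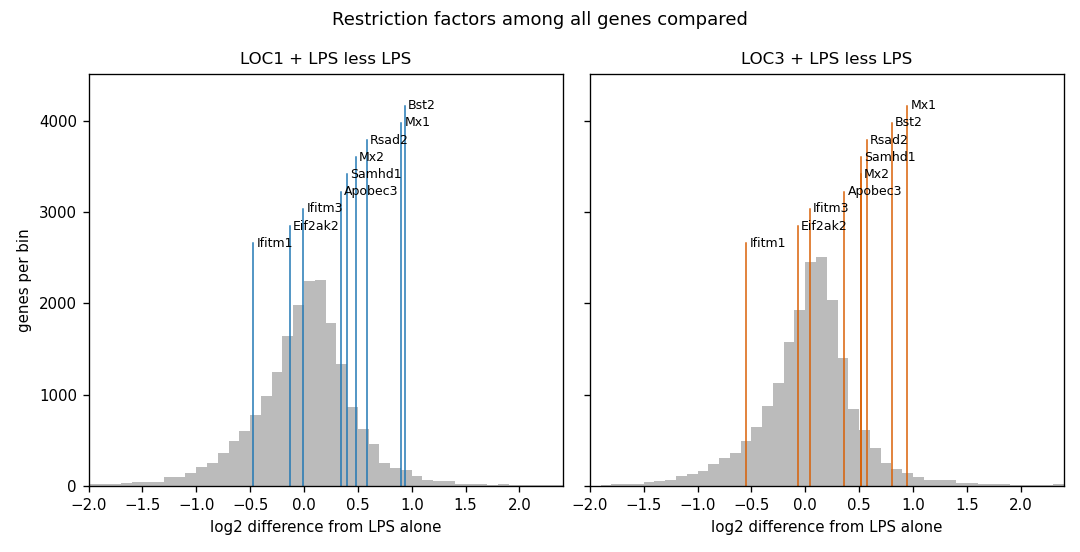
Histogram of the log2 difference from LPS alone over all genes compared, for LOC1 + LPS (left) and LOC3 + LPS (right), with the 9 restriction factors marked by lines whose heights serve only to separate the names. Genes beyond the axis are not drawn. Bst2 and Mx1 lie in the right tail, Ifitm1 lies left of the peak, and Ifitm3 and Eif2ak2 lie near 0, where median scaling turns the sign of Eif2ak2.

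Among the factors that act at the cell membrane, Bst2 was higher with both strains. Tetherin, its product, holds budding virions on the surface of the cell. The probe (chr8:74058603-74058662, minus strand, build mm9) had intensities of 23518 with LPS, 40626 with LOC1 + LPS and 37342 with LOC3 + LPS. After scaling, these were log2 differences of 0.93 (1.91-fold) and 0.80 (1.75-fold) from LPS. Both lay far above the technical SD of 0.06, and the range over all scalings and settings was 0.82 to 1.12 with LOC1 and 0.65 to 0.97 with LOC3.

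Ifitm1 and Ifitm3, which encode small membrane proteins that restrict viral entry, were not higher as Bst2 was. The Ifitm1 probe (chr7:148155659-148155718) had intensities of 256 with LPS, 167 with LOC1 + LPS and 159 with LOC3 + LPS. Ifitm1 was therefore brightest with LPS alone, with log2 differences of −0.47 and −0.55. These are well past the technical SD of bright probes, but the probe lay only just over the limit to dim probes, and against their SD of 0.30 both differences would be under 2 SDs. The Ifitm3 probe (chr7:148195489-148195548) had intensities of 131506, 118192 and 123183 in the same order. Ifitm3 was bright on all 3 arrays and its log2 differences were −0.01 with LOC1 and 0.04 with LOC3, both within 2 technical SDs and with a sign that changed with the scaling.

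Samhd1 was higher on 4 of its 5 probes with each strain. The brightest probe (chr2:156923265-156923324) had intensities of 48152 with LPS, 57467 with LOC1 + LPS and 62782 with LOC3 + LPS, and log2 differences of 0.40 and 0.52. The second probe had 13840, 21766 and 22705, with differences of 0.80 and 0.85. The third had 8256, 12136 and 12647, with 0.70 and 0.75, and the fifth, designed on another transcript model, had 272, 374 and 402, with 0.60 and 0.70. On all 4 the LPS array was lowest. The fourth probe (chr2:156925329-156925388), designed on the transcript ENSMUST00000123932, went the other way. It had intensities of 857 with LPS, 524 with LOC1 + LPS and 508 with LOC3 + LPS, or log2 differences of −0.57 and −0.62, and it was also the Samhd1 probe with the largest LPS ratio, 4.51. The signal of 1 probe of Samhd1 thus differed in sign from the other probes of the gene with both strains, each time by more than 2 technical SDs. Which transcripts this probe reads was not tested.

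Apobec3 was modestly higher with both strains on each of its 5 probes. The brightest probe (chr15:79738107-79738166) had intensities of 4024 with LPS, 4605 with LOC1 + LPS and 4702 with LOC3 + LPS, and log2 differences of 0.34 and 0.36. The second had 409, 518 and 585, with differences of 0.49 and 0.66. The third had 160, 202 and 224, with 0.48 and 0.63. The 2 dim probes had 131, 170 and 167, and 117, 130 and 124, with differences between 0.22 and 0.52 that were all within 2 technical SDs. The LPS array was thus the lowest on all 5 probes, and on 3 of them by more than the noise of the spots. The third probe lay only just over the limit to dim probes, as Ifitm1 did. Against the dim SD of 0.30 its difference with LOC1 would be under 2 SDs.

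Mx1 was higher with both strains on both of its probes. The brightest probe (chr16:97668644-97668703) had intensities of 24090 with LPS, 40709 with LOC1 + LPS and 42161 with LOC3 + LPS, which were log2 differences of 0.90 (1.87-fold) and 0.95 (1.93-fold). The second probe had 3400, 6594 and 6247, or 1.10 (2.14-fold) and 1.02 (2.02-fold), and was the single restriction factor probe at least 2-fold higher. Its listed position, chr16:97668644-97668668, lies within that of the brightest probe, so the 2 probes do not read separate parts of the gene. On both probes the LPS array was lowest, and the call at 2-fold depends on which probe is taken.

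Mx2 was higher on its main probe and lower on a faint one. The main probe (chr16:97782327-97782386) had intensities of 27306 with LPS, 34429 with LOC1 + LPS and 35496 with LOC3 + LPS, with log2 differences of 0.48 and 0.52. The faint probe (chr16:97780076-97780135), designed on the transcript ENSMUST00000191103, had 43.9, 14.0 and 18.1, and was well above background on the LPS array alone. Against the detection limit of each of those arrays, it was at least 2.74-fold lower with LOC1 + LPS and at least 2.01-fold lower with LOC3 + LPS. Its listed LPS ratio was 3.84, or at least 2.69-fold over unchallenged macrophages as a bound. As with the fourth Samhd1 probe, a probe designed on an alternative transcript model was highest with LPS alone while the main probe was lowest there. The fifth probes of Samhd1 and of Apobec3, also designed on other transcript models, went the other way and were lowest with LPS. The direction given for Mx2 is that of its brightest probe, as for every gene, and the faint probe went the other way with both strains.

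Rsad2 was higher with both strains on both of its probes. The brightest probe (chr12:27127859-27127918) had intensities of 137417 with LPS, 186112 with LOC1 + LPS and 185512 with LOC3 + LPS, and log2 differences of 0.58 and 0.57, just under 1.5-fold. The second probe had 34240, 59401 and 55337, with 0.94 and 0.83. No spot of any probe was saturated. In Samhd1, Mx1 and Rsad2 the brightest probe differed less from LPS than the other probes that moved in the same direction, and the reason was not tested.

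Eif2ak2, like Ifitm3, stayed near 0 with both strains. PKR, its product, halts translation when it meets double-stranded RNA. The probe (chr17:79253868-79253927) had intensities of 15156 with LPS, 12514 with LOC1 + LPS and 13114 with LOC3 + LPS. Relative to the upper quartile of each array this left log2 differences of −0.13 and −0.07, the first just past and the second within 2 technical SDs, and median scaling turned both to positive values of 0.06 and 0.09. The gene was higher after LPS by the deposited ratio. Less the median of all genes, its differences were −0.17 with LOC1 and −0.14 with LOC3 under both scalings, past 2 technical SDs. The difference from LPS alone was thus small, and its sign depends on the scaling.

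**Figure D4:**
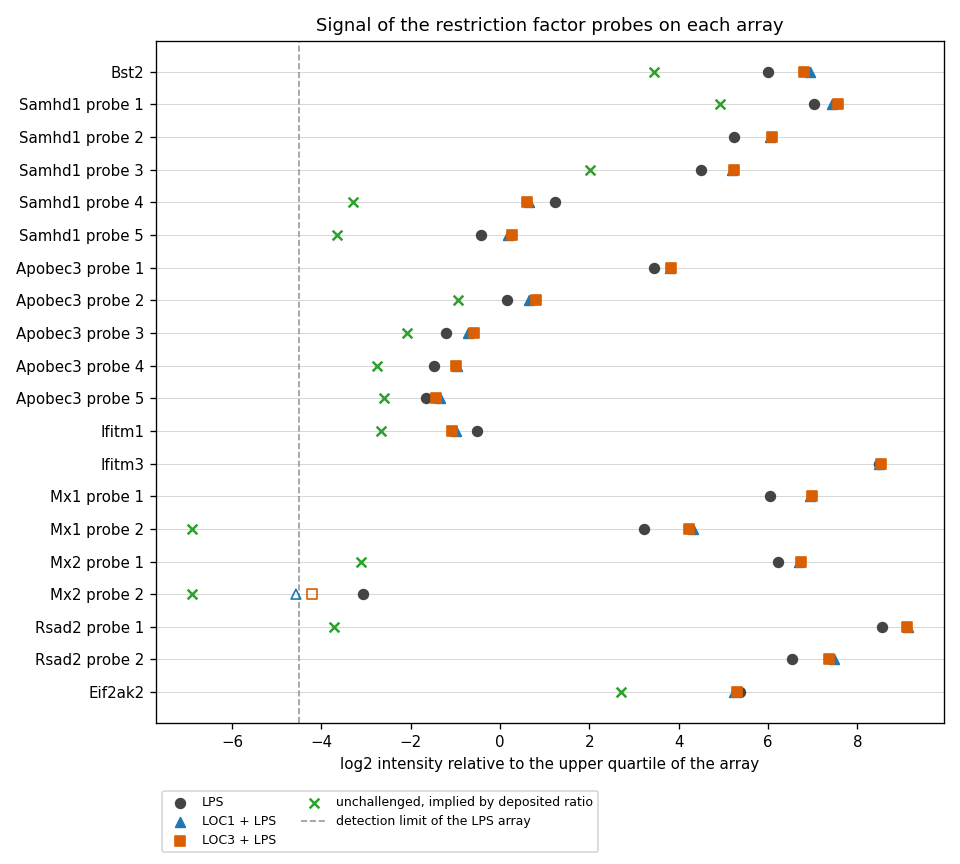
Log2 intensity relative to the upper quartile of the array for the 20 probes of the restriction factors on each of the 3 arrays, probes ranked by brightness within a gene, with open symbols where a probe was not well above background. Green crosses give the unchallenged signal implied by the deposited ratio, and the dashed line the detection limit of the LPS array. As drawn, the step from the crosses to the LPS points exceeds the step from LPS to either strain for all listed probes. The crosses of Mx1 probe 2 and Mx2 probe 2 lie under that limit. Each open symbol lies under the limit of its own array. Steps that involve these points are not measured sizes.

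**Figure D5:**
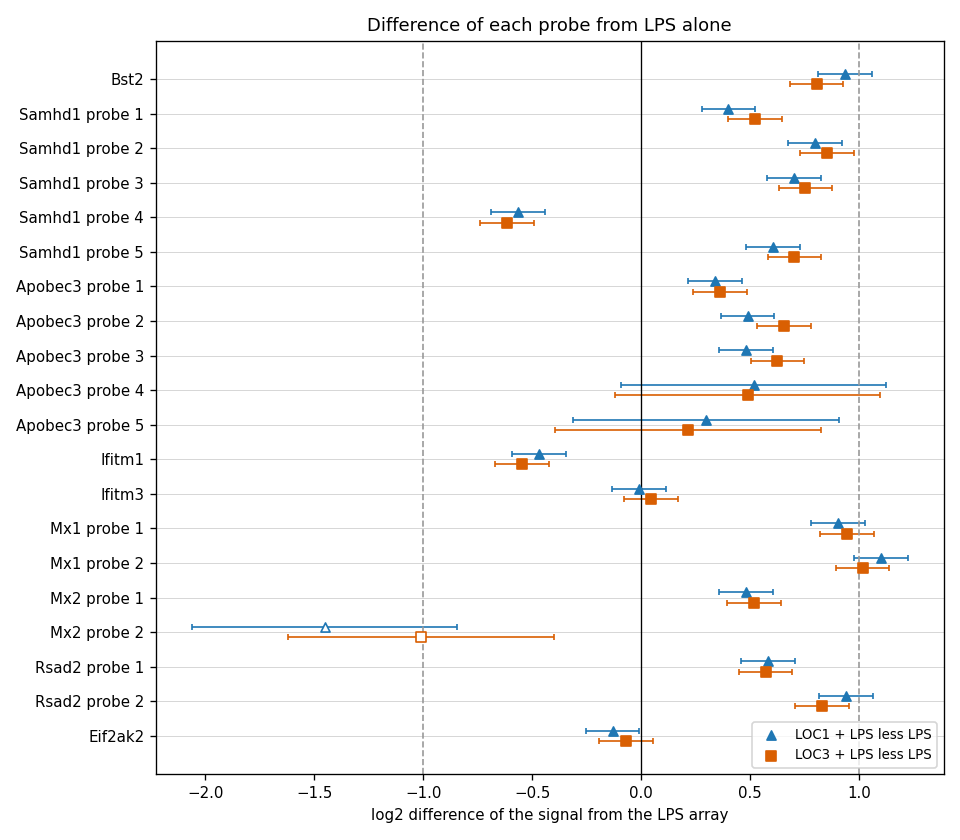
Log2 difference from LPS alone for each probe with LOC1 + LPS (triangles) and LOC3 + LPS (squares). Bars are 2 technical SDs of spot noise and not a spread between cultures, dashed lines mark 2-fold, and open symbols are bounds. Samhd1 probe 4, Mx2 probe 2 and Ifitm1 lie left of 0 with both strains, while the other probes of Samhd1, Apobec3, Mx1, Mx2 and Rsad2 and the Bst2 probe lie right of it; the sign of Ifitm3 and Eif2ak2 changed with the scaling.

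The 2 strains were close to each other over these genes. Of the 19 probes measured on both arrays, 16 had a LOC1 less LOC3 difference within 2 technical SDs, and the differences ran from −0.17 to 0.13 in log2 units. On the brightest probe of each gene the range was −0.12 for Samhd1 to 0.13 for Bst2, and the median was −0.04 against −0.02 over all genes. By sign, 3 of the 9 genes were above 0, where 44.5% of all genes were. No restriction factor differed by 1.5-fold between the strains, where 2.02% of all genes were higher and 3.85% lower with LOC1, or by 2-fold, where 0.798% were higher and 1.89% lower. With 1 array per strain these values do not show that the strains act alike.

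The wider group of antiviral genes gives the setting for these values. A list of 35 other antiviral effectors had medians of 0.40 with LOC1 + LPS and 0.36 with LOC3 + LPS. With LOC1 33 of the 35 lay above 0 and 3 were at least 2-fold higher, where 53.7% and 2.71% of all genes were. With LOC3 32 lay above 0 and 2 were at least 2-fold higher, where 58.1% and 3.22% of all genes were. None was 2-fold lower. The largest differences were those of Ifit3, an RNA-binding antiviral protein gene, with 1.53 and 1.33, and Cmpk2, a nucleotide kinase gene, with 1.15 and 1.11. The lowest with LOC1 was Serinc5, which encodes a membrane protein that lowers the infectivity of virions, with −0.34 and −0.23. Its intensities were 211 with LPS, 151 with LOC1 + LPS and 163 with LOC3 + LPS. Ch25h, a cholesterol hydroxylase gene, had 0.10 with LOC1 and −0.27 with LOC3, from intensities of 43.4, 42.1 and 32.7 in the same order. Against the SD of dim probes, 0.30, the differences of both genes would be within 2 SDs. The restriction factors thus had medians of the same order as the other effectors.

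Among 10 family relatives of the members, 8 could be compared, with medians of 0.15 and 0.16. Ifitm5, the neighbour of Ifitm2 in the Ifitm cluster, was the single relative past 2-fold, lower with log2 differences of −1.92 and −1.47 from intensities of 102 with LPS, 24.4 with LOC1 + LPS and 33.5 with LOC3 + LPS. Ifitm6 had 0.15 and 0.22, Ifitm7 0.52 and 0.44, and Ifitm10 0.16 and 0.13. In the order Ifitm5, Ifitm2, Ifitm1, Ifitm3, Ifitm6 that RefSeq gives for the cluster, Ifitm5 and Ifitm1 were lower with both strains, Ifitm2 was not measured, and Ifitm3 was near 0. Of the kinases related to PKR, Eif2ak1 had 0.18 and 0.19, Eif2ak3 −0.15 and −0.18, and Eif2ak4 −0.48 and −0.35. Apobec1 had 0.28 and 0.30, while Apobec2 was not well above background.

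In the list of 11 interferon signalling genes, Ifnb1, which encodes interferon-β itself, stood apart. Its intensities were 1251 with LPS, 29911 with LOC1 + LPS and 18123 with LOC3 + LPS, or log2 differences of 4.72 and 3.99. It was the only gene of the list past 2-fold, and the list had medians of 0.22 and 0.27. The next-largest were Irf7, a transcription factor gene of the interferon response, with 0.49 and 0.66. The lowest with both strains was Ifnar1, a receptor chain gene, with −0.63 and −0.72. Next lowest with LOC1 was Tyk2, a receptor kinase gene, with −0.24 and −0.05. Irf3, a transcription factor gene upstream of Ifnb1, had −0.07 and −0.05. On their brightest probes the restriction factors differed from LPS by at most 0.95 on the log2 scale, and with median scaling by at most 1.12, while Ifnb1 differed far more. The widely used reference genes Actb and Gapdh had 0.07 and 0.12, and 0.30 and 0.34.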

How the data were processed

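Total RNA was hybridised to 1-colour Agilent mouse arrays. The intensity of each spot was deposited by the authors as background-subtracted output of Feature Extraction 12.0.3.1, with no normalization between arrays. A table of log2 ratios to unchallenged macrophages was deposited by the authors from GeneSpring, with values under 2-fold left blank. Spots of 1 probe were averaged and outlier spots left out (118 to 135 per array). The log2 intensity less the 75th percentile over the 56605 probes of the array was compared. A gene took the value of its brightest probe, and fainter signals were set to the detection limit of the array (intensities of 14.5 to 19.8), which gives a bound. The share of probes well above background was 47.8% to 51.9%, and the number of arrays limits the precision.

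The members and the lists were chosen with earlier results of these data known. The text names all 10 members with every probe, the family relatives, Ifnb1, Actb and Gapdh, and the largest differences of the lists of other antiviral effectors and interferon signalling genes, apart from a few genes that are not reported here. Marker lists served only to check the cell type. An accession matched 15 of the 20 member probes to the same symbol and 5 to none. The scanner files give probe positions on mm9, and a probe that crosses exons spans an intron there. Alternatives were other scalings, background correction, filters, thresholds, probe rules and the deposited ratios. The 1.5-fold counts and a percentile over spots were added after the data were seen. The steps were tested on simulated data. Python 3.11.15, numpy 2.4.6, pandas 2.3.3, matplotlib 3.10.9, R 4.3.3 and limma 3.58.1 were used, the last for normexp with an offset of 50. The planned comparison of protein sequences was not run.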

Additional observations from a re-analysis of the deposited data

How the results depend on the processing

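No paired analysis was possible because each group has 1 array, and no array was left out, as a group would be lost. No gene of the set that was at least 1.5-fold from LPS changed direction under any setting run, and Samhd1, Apobec3, Rsad2 and Ifitm1 also kept their sign. Ifitm3 and Eif2ak2 changed sign with the scaling. Averaging the probes of Mx2 turned its difference negative, to −0.49 with LOC1 and −0.25 with LOC3, where 1 of its 2 probes enters only as a bound.

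Median scaling moved the median of all genes to 0.22 with LOC1 and 0.23 with LOC3, and that of the restriction factors to 0.59 and 0.68. It gave 891 genes at least 2-fold higher and 467 lower with LOC1 and 377 lower with LOC3, with 2 members higher with LOC1 and 1 with LOC3. This scaling shifts all genes of an array by 1 constant. Less the median of all genes, the difference was 0.90 with LOC1 and 0.74 with LOC3 for Bst2, and −0.17 and −0.14 for Eif2ak2. Taking the percentile from probes seen on all 3 arrays gave member medians of 0.33 and 0.43, and quantile normalization 0.25 and 0.33. With normexp background correction, the genes higher and lower were 223 and 200 with LOC1, 272 and 146 with LOC3, and 40 and 112 between LOC1 and LOC3, against 544 and 704, 639 and 578, and 155 and 367 as reported. Asking for a signal well above background on both arrays gave 462 lower with LOC1, 333 and 378 with LOC3, and 37 and 69 between the strains. No filter and no floor gave 1535 and 2261, 1749 and 1968, and 1179 and 1639. The mean of the detected probes put 1 member, Mx1, past 2-fold with LOC1 and gave a member median of 0.44 with LOC3, with Mx2 entered through a bound. At 3-fold the counts were 194 and 213, 264 and 134, and 69 and 218, and 2138 and 1573 probes for LPS against unchallenged, where 4006 and 3570 were listed at 2-fold. The deposited ratios gave 316 and 457 with LOC1, with 1 member higher and a member median of 0.48, 309 higher and 1 member higher with LOC3, and 212 lower between the strains. With dim implied signals raised to the limit of detection, 2552 probes were higher with LPS. The cause of these shifts was not tested.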

Other observations

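Neighbouring genes were looked at after the values of the members were seen, with gene order taken from the RefSeq table. Cmpk2, which lies beside Rsad2, had log2 differences of 1.15 with LOC1 + LPS and 1.11 with LOC3 + LPS, with intensities of 56135 with LPS, 112600 with LOC1 + LPS and 110162 with LOC3 + LPS. Fam3b, which lies between Mx1 and Mx2, had 1.31 with LOC1 + LPS and 0.997 with LOC3 + LPS on a dim probe. Its intensities were 29.5, 66.0 and 53.5 in the same order. The neighbours of Apobec3, Cbx6 and Pdgfb, had −0.15 and −0.18, and −0.17 and −0.08, while Apobec3 lay above 0 with both strains. Mvb12a, beside Bst2, had 0.17 and 0.10, and Samhd1 lies between Tldc2, which had −0.15 and −0.31, and Rbl1, which had 0.11 and 0.16. Gpatch11, beside Eif2ak2, had 0.32 and 0.30. Tmprss2, beside Mx2, was well above background with LOC3 + LPS alone, with intensities of 3.83 with LPS, 12.3 with LOC1 + LPS and 76.1 with LOC3 + LPS. As a bound, its log2 difference from LPS was at least 2.36 with LOC3 + LPS. The remaining neighbours were members or relatives, had no probe, or were not well above background with LPS.

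The ISRE core was found in the promoters of 11 of 30 other antiviral effectors, of 0 of 9 family relatives and of 1 of 10 interferon signalling genes with a listed promoter. Among the restriction factors, the genes with the core in a listed promoter included Bst2, Rsad2 and Apobec3, which were higher with both strains, and Ifitm3 and Eif2ak2, which were near 0. The genes without it were Samhd1, which was higher on its brightest probe, and Ifitm1, which was lower.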
